A study of Rattus norvegicus with 15 samples.

Results

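The genes of respiratory complexes II to V are the nuclear genes for succinate dehydrogenase (complex II), the cytochrome bc1 complex (III), cytochrome c oxidase (IV) and the ATP synthase (V). They were taken by symbol from the count table, as the rows named Sdha, Sdhb, Sdhc, Sdhd or Cyc1 and the rows whose symbol starts with Uqcr, Atp5 or Cox followed by a digit from 4 to 8. The choice gave 45 rows with 43 symbols among 11574 genes, with 4 members in complex II, 10 in complex III, 14 in complex IV and 17 in complex V. The symbols Cox6b1 and Uqcrb each stood on 2 rows, at cytogenetic bands 1q21 and 2q34 and at 1q21 and 7q22, and whether the rows of 1 symbol share reads was not tested. The subunits encoded by the mitochondrial genome and the genes Cox7a1, Cox7a2, Cox4i2 and Cox6b2 were not analysed here. The choice by symbol also takes in Atp5if1, an inhibitor of the ATP synthase, and Cox7a2l, an assembly factor of supercomplexes.

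Messenger RNA of 15 cultures of H9c2, a myoblast line from embryonic rat heart, was sequenced, with 3 cultures in each of 5 groups. T0 was harvested at day 0, T7-RA and T14-RA at days 7 and 14 of culture without retinoic acid (RA), and T7+RA and T14+RA at the same days with 1 µM all-trans RA, dissolved in DMSO and added daily. Serum was lowered from 10% to 1% at the start of differentiation in the cultures with and without RA. The labels give both serum levels for T0 as well, and not which it was in at harvest. In changes from T0, culture time and lowered serum therefore cannot be told apart. Whether the cultures without RA received DMSO was not given in the sources used here, so RA and its solvent cannot be told apart, and all groups come from 1 cell line.

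Complexes II and III pass electrons from succinate and ubiquinol to cytochrome c, complex IV hands them to oxygen, and complex V uses the proton gradient that the chain builds to make ATP. Striated muscle is rich in these complexes. Some complex IV subunits exist in a form found mainly in heart and skeletal muscle and a form found in most tissues, such as Cox6a2 beside Cox6a1 and Cox8b beside Cox8a, and the ring of subunit c in complex V is encoded by Atp5mc1, Atp5mc2 and Atp5mc3, which give the same mature protein.

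Promoter windows are shown for 3 members on which the isoform results turn, the muscle forms Cox6a2 and Cox8b and the ubiquitous form Cox8a. Each window holds the 250 bases before the annotated start of the gene, 5′ to 3′ on the strand of the gene, from RefSeq (assembly GRCr8). All 3 genes lie on the minus strand of chromosome 1, with Cox6a2 at chr1:192219717-192219966, Cox8b at chr1:205408274-205408523 and Cox8a at chr1:213833624-213833873. Capitals mark matches on either strand to the motifs searched.
Cox6a2: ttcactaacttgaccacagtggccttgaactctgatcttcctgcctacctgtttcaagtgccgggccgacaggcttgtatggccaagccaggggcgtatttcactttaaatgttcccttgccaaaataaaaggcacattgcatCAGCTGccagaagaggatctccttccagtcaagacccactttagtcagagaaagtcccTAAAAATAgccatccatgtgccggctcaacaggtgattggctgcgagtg
Cox8b: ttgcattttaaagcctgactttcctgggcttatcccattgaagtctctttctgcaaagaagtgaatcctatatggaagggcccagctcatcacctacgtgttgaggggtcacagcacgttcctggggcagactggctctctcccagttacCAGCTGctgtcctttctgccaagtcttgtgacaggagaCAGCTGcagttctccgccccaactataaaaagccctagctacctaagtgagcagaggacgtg
Cox8a: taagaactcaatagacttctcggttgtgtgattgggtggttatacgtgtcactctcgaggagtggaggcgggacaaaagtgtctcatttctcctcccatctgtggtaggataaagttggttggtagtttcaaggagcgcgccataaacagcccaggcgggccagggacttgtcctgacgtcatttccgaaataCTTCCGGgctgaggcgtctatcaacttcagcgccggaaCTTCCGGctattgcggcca
In Cox6a2 the capitals are the E-box CAGCTG, a site type read by myogenic bHLH factors, at -107 and the MEF2 motif TAAAAATA at -49, counted from the start. In Cox8b both are the E-box, at -100 and -62, and in Cox8a both are CTTCCGG, the ETS motif CCGGAAG on the opposite strand, at -57 and -19.

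Of the 43 symbols, 37 were matched to a RefSeq promoter. The ETS motif was found in 12 of these 37 windows (32.4%) and in 7.74% of all 27457 windows of the same length. The motif GCGCANGCG of nuclear respiratory factor 1, a regulator of respiratory genes, was found in 7 (18.9%, against 5.53%), namely those of Sdha, Uqcrc1, Cox7a2l, Atp5mc2, Atp5me, Atp5mg and Atp5po. The motif AAGGTCA of estrogen-related receptors was found in 5 (13.5%, against 3.77%). The E-box was found in 5 windows (13.5%, against 11.9%), and the MEF2 motif in 1, that of Cox6a2 (2.7%, against 2.51%). Copies of AGGTCA repeated in the same direction with 5 bases between them, an arrangement bound by retinoic acid receptors, were found in 0 of the 37 and in 0.0109% of all windows. The members' windows held a median of 16 CpG dinucleotides and those of all genes 6. These are matches of letters only, and no binding was measured.

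The libraries held 508397 to 1030820 counts. Levels are given as CPM, counts scaled to a common library total with TMM factors (edgeR's correction for library composition), with the SD over 3 cultures. The T0 libraries differed most, and they differed by gene length: against the mean of T0, the median log2 level of 296 other genes of up to 700 bases was 0.36 in replicate 2 and -0.24 in replicate 3, and that of the members was 0.28 and -0.23. The members are short, with a median size of 601 bases against 2305 for all genes, and 30 of the 45 are at most 1000 bases long. The counts of members called were therefore also taken without these T0 libraries and with a length trend removed. Of the marker genes examined, all 8 myotube markers, 5 of 5 markers of proliferating cells and 5 of 7 fibroblast markers were among the genes analysed. For endothelial cells it was 1 of 4 (Tek), for cardiomyocytes 0 of 5 and for macrophages 0 of 4. In bulk RNA, a change in the share of cells that form myotubes and a change in RNA per cell cannot be told apart.

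The summed level of the members was higher at each later time than at T0, while single members differed. It was 6129.5 ± 1003 CPM at T0 (SD, n = 3), 7730.4 ± 174 for T7-RA, 9316 ± 217 for T14-RA, 7348 ± 137 for T7+RA and 11417 ± 876 for T14+RA. The lowest of the 12 later cultures stood at 7244 CPM and the highest at T0 at 7182 CPM. Against T0, the sum in T14+RA was 1.85-fold for complex II, 1.88-fold for complex III, 2.11-fold for complex IV and 1.76-fold for complex V, and in T14-RA it was 1.66-, 1.54-, 1.82- and 1.38-fold. T0 had the lowest mean of the 5 groups in 36 of 45 members, and T14+RA the highest in 40. In 27 members the means followed a single order, from T0 through T7+RA, T7-RA and T14-RA to T14+RA.

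**Figure D1:**
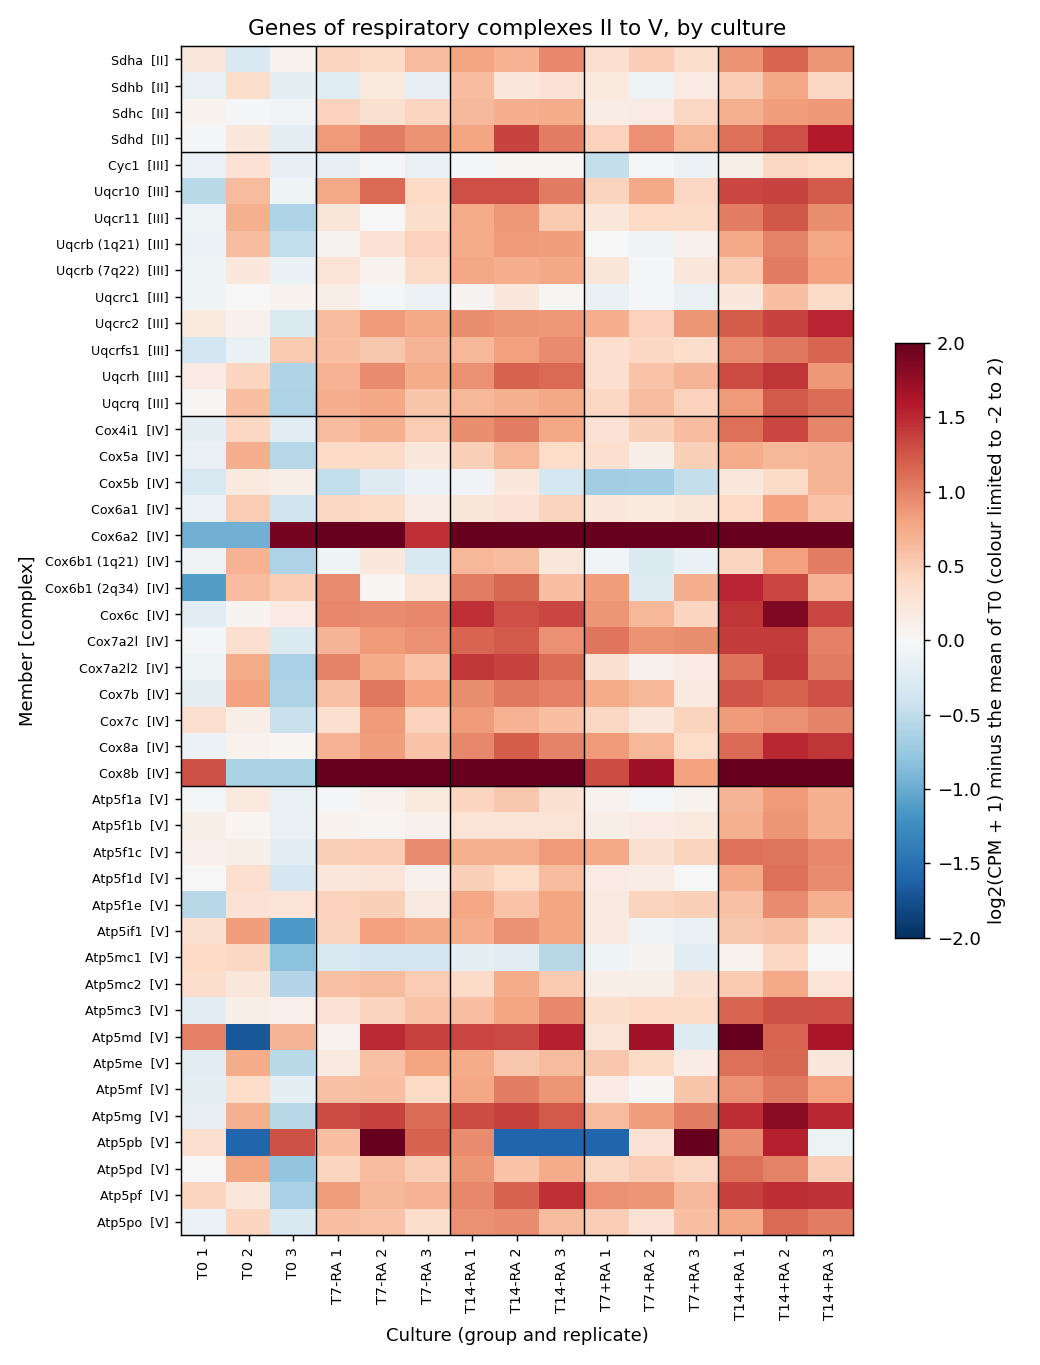
Level of each of the 45 members (rows, by complex) in each of the 15 cultures (columns), as log2(CPM + 1) minus the mean of the 3 T0 cultures, with colour limited to -2 to 2. The cells are mostly red from day 7 on and darkest in T14+RA, which has the highest mean in 40 members, while Cox6a2 and Cox8b exceed the colour scale and the low-count Atp5pb and Atp5md scatter.

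Genes were called where edgeR's quasi-likelihood test gave an adjusted p under 0.001, with additive terms for day 7 (T7), day 14 (T14) and RA. The T14 term, the change from T0 to day 14 adjusted for RA, was called as raised in 27 of 45 members and as lowered in 0, beside 8.47% raised and 8.85% lowered of all genes. The median change of the members was 0.81 on the log2 scale, with 43 of 45 above 0, and that of all genes was 0.05. Counts by complex were 3 of 4 in complex II, 6 of 10 in complex III, 9 of 14 in complex IV and 9 of 17 in complex V. At an unadjusted p under 0.05, edgeR gave 39 raised and 1 lowered, beside 22.2% and 20.9% of all genes. DESeq2 called 23 and limma-voom 24 at the adjusted threshold, and both called 0 as lowered. Each culture of day 14 lay above each T0 culture in 30 of 45 members, the 27 called ones among them, and in 14.8% of all genes. Without T0 replicates 2 and 3 the count was 18 (median 0.83), a fit in which T0 is 1 culture that is assumed to vary like the cultures of the other groups. With the length trend removed the count was 25 (median 0.65). The median over 1348 other genes of up to 1000 bases was 0.26.

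The T7 term, which shares the T0 cultures with the T14 term, was called as raised in 4 members and as lowered in 0, beside 4.29% and 4.44% of all genes. The 4 were Cox6c, Cox7a2l, Cox8a and Cox8b, all of complex IV. The median of the members was 0.40 and that of all genes 0.02, with 37 of 45 members above 0. At an unadjusted p under 0.05, edgeR gave 25 raised and 2 lowered (Cox5b and Atp5mc1), beside 17.5% and 16.7% of all genes, while DESeq2 called 3 and limma-voom 4 as raised and both called 0 as lowered. The count was 1 without T0 replicate 1, 9 without T0 replicate 2 and 7 without T14+RA replicate 2, so it depended on single libraries. With the length trend removed, 5 members were raised and 1 was lowered, with a median of 0.22, and the median over the other genes of up to 1000 bases was 0.15.

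From day 7 to day 14 the rise was larger with RA than without it in the values, and the difference is tested further on. In T14-RA against T7-RA, 2 members were called as raised, Cox6a2 and Cox8b, and 0 as lowered, beside 1.87% and 1.09% of all genes, with a median of 0.30 over the members and 0.0031 over all genes. In T14+RA against T7+RA, 16 were called as raised and 0 as lowered, beside 2.4% and 2.26% of all genes, with a median of 0.63 over the members and 0.0092 over all genes. At an unadjusted p under 0.05, edgeR gave 22 raised in the first comparison, beside 9.33% of all genes, and 42 in the second, beside 11.3%, and 0 lowered in both, beside 9.1% and 11.3%. DESeq2 called 2 and 12 as raised, limma-voom 2 and 14, and neither called a member as lowered. The 16 members were Sdhc in complex II, Uqcr10 and Uqcrc2 in complex III, Cox4i1, Cox5b, Cox6a2, Cox6c, Cox7a2l2, Cox8a and Cox8b in complex IV, and Atp5f1a, Atp5f1b, Atp5f1d, Atp5mc3, Atp5mf and Atp5mg in complex V. Their day 14 cultures all lay above their day 7 cultures, as was the case in 37 of 45 members and in 14.4% of all genes. The count of 16 became 10 without T7+RA replicate 2 and 24 without T0 replicates 2 and 3.

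**Figure D2:**
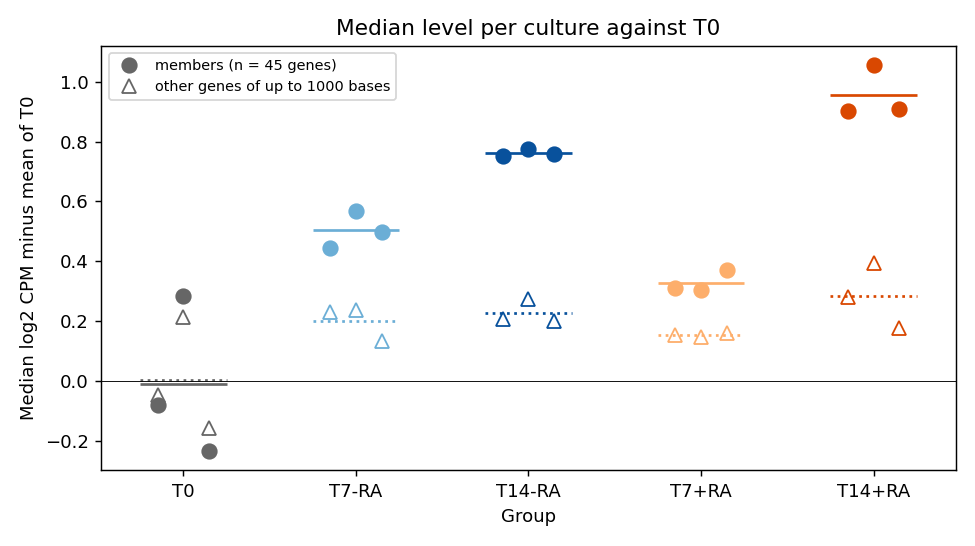
Median log2 CPM minus the mean of T0 for each culture, over the 45 members (filled circles) and over 1348 other genes of up to 1000 bases (open triangles), with group means as solid and dotted lines. The members' medians run from -0.23 to 0.28 at T0, from 0.31 to 0.37 for T7+RA, from 0.44 to 0.57 for T7-RA, from 0.75 to 0.78 for T14-RA and from 0.90 to 1.05 for T14+RA, while the other short genes stay at 0.39 or below.

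Complex II oxidises succinate and is the entry point shared with the citrate cycle. Sdha, its flavoprotein, had 103, 71.3 and 92.2 CPM in the T0 cultures, 153, 143 and 173 for T14-RA and 165, 198 and 163 for T14+RA. The T14 change was 0.86 (SE 0.15, edgeR adjusted p = 8.65e-06), and no day 14 culture overlapped T0. The membrane anchor Sdhd rose by 1.17 (SE 0.20, edgeR adjusted p = 1.92e-06), from 49.7, 58.2 and 44.0 CPM at T0 to 87.7, 129 and 103 for T14-RA and 109, 124 and 152 for T14+RA. The other anchor, Sdhc, also rose, by 0.76. Sdhb, the iron-sulfur subunit, did not pass (0.39, SE 0.18, edgeR adjusted p = 0.0787), and its T0 cultures overlapped those of day 14.

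In complex III, Uqcr10, Uqcrb (7q22), Uqcrc2, Uqcrfs1, Uqcrh and Uqcrq passed for T14, with changes of 0.76 to 1.26. Uqcrc2, a core protein of the complex, had 168, 156 and 119 CPM at T0, 279, 271 and 268 for T14-RA and 340, 376 and 422 for T14+RA, so its groups of day 14 did not overlap each other or T0. Its T14 change was 1.00 (SE 0.14, edgeR adjusted p = 5.75e-08). Uqcrc1, the partner core protein, did not pass (0.21, SE 0.15, edgeR adjusted p = 0.288), with 124 to 138 CPM at T0 and 134 to 152 for T14-RA. Cyc1, which carries the haem that reduces cytochrome c, did not pass either (0.09, SE 0.14, edgeR adjusted p = 0.666). Uqcr11 and Uqcrb (1q21) had changes of 0.67 and 0.81 and did not pass.

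In complex IV, 9 members passed for T14: Cox4i1, Cox6a2, Cox6c, Cox7a2l, Cox7a2l2, Cox7b, Cox7c, Cox8a and Cox8b. Beside both muscle forms the largest change was that of Cox6c, a small structural subunit, with 78.6, 95.7 and 103 CPM at T0, 179, 177 and 180 for T7-RA, 255, 227 and 232 for T14-RA, 170, 146 and 123 for T7+RA and 248, 338 and 232 for T14+RA. All later cultures exceeded all T0 cultures, and the T14 change was 1.50 (SE 0.16, edgeR adjusted p = 1.1e-11). Cox7a2l2, annotated as a relative of subunit 7A2, rose from 34.5, 61.9 and 23.1 CPM at T0 to 99.7, 95.6 and 81.3 for T14-RA and 79.1, 99.0 and 76.1 for T14+RA, a T14 change of 1.31 (SE 0.22, edgeR adjusted p = 2.12e-06). Whether it shares reads with its relatives was not tested. Cox7a2l, which joins complexes III and IV in supercomplexes, rose by 1.09 (SE 0.14). Cox5a, Cox5b, Cox6a1 and both rows of Cox6b1 did not pass, with changes of 0.15 to 0.97.

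Cox5b, a subunit on the matrix side of complex IV, passed only between T7+RA and T14+RA. It had 74.5, 107 and 101 CPM at T0, 65.6, 77.9 and 85.7 for T7-RA, 57.0, 57.7 and 66.8 for T7+RA, 88.9, 108 and 72.8 for T14-RA and 108, 121 and 149 for T14+RA. The rise from T7+RA to T14+RA was 1.03 (SE 0.18, edgeR adjusted p = 1.52e-05) with no overlap. The T7 change of -0.49 (SE 0.19) had an edgeR adjusted p of 0.0575 and did not pass.

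In complex V, the T14 change passed for Atp5f1a, Atp5f1c, Atp5f1d and Atp5f1e of the catalytic F1 part, for Atp5mc3, Atp5mf and Atp5mg of the membrane part, and for Atp5pf and Atp5po of the peripheral stalk. Atp5mg, subunit g, had 71.7, 131 and 54.5 CPM at T0, 199, 207 and 188 for T14-RA and 226, 281 and 230 for T14+RA. Its T14 change was 1.40 (SE 0.22, edgeR adjusted p = 3.06e-05). The 8 that did not pass were Atp5f1b, Atp5if1, Atp5mc1, Atp5mc2, Atp5md, Atp5me, Atp5pb and Atp5pd. Atp5pb, the peripheral stalk subunit b, had only 60 counts over the 15 libraries and up to 34.3 CPM in 1 T7+RA culture, and the row LOC100911417, annotated as similar to subunit b, had 25 counts, so its level is uncertain. Atp5md had 70 counts.

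Atp5f1b, the catalytic beta subunit of the ATP synthase, was the member with the highest level per kilobase in all 5 groups and the only one called as raised by RA at day 14. It had 1759, 1662 and 1467 CPM at T0, 1707, 1666 and 1717 for T7-RA, 1974, 1975 and 1959 for T14-RA, 1779, 1812 and 1861 for T7+RA and 2662, 2984 and 2656 for T14+RA. The T14-RA cultures lay close together, and every T14+RA culture was above them. The change with RA was 0.49 at day 14 (SE 0.08, edgeR adjusted p = 9.41e-06) and 0.10 at day 7 (SE 0.08, edgeR adjusted p = 0.652). Day 14 minus day 7 gave 0.39 (SE 0.12, edgeR adjusted p = 0.14), which did not pass.

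Averaged over both days, the RA term was called as raised in 0 members and as lowered in 1, Cox8b, beside 3.33% and 3.07% of all genes. At an unadjusted p under 0.05, edgeR gave 6 raised and 3 lowered, beside 12.1% and 12.7% of all genes, so the members stood near or below the background. DESeq2 and limma-voom each called 1 as raised (Atp5f1b) and 1 as lowered. The count in edgeR was 2 without T0 replicate 2 or without T14+RA replicate 1. The median was 0.08 over the members and -0.0086 over all genes. At day 7, T7+RA against T7-RA gave 0 raised and 1 lowered, again Cox8b, beside 1.87% and 1.3% of all genes, with a median of -0.10 over the members and 37 of 45 below 0, of -0.02 over all genes and of -0.07 over the 1348 other genes of up to 1000 bases, so the members' median was close to that of short genes. There edgeR gave 1 raised and 5 lowered at an unadjusted p under 0.05, beside 8.67% and 8.58% of all genes, and DESeq2 and limma-voom each called 0 and 1. At day 14, T14+RA against T14-RA gave 1 raised (Atp5f1b) and 1 lowered (Cox8b), beside 2.46% and 2.35% of all genes, with a median of 0.24 and 41 of 45 above 0, while the median was -0.0036 over all genes and 0.09 over the other genes of up to 1000 bases. With the length trend removed, the members' median at day 14 was 0.14, with 36 of 45 above 0 and 9 raised at an unadjusted p under 0.05 in edgeR. Without that step edgeR gave 15 raised and 1 lowered at an unadjusted p under 0.05, beside 10.3% and 11.3% of all genes, and DESeq2 and limma-voom each called 1 and 1. The count of 2 became 4 without T0 replicates 2 and 3.

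The RA change at day 14 minus that at day 7 was above 0 in 44 of 45 members, with a median of 0.37, against 0.0062 over all genes. In edgeR 0 members passed in either direction at an adjusted p under 0.05, beside 0.285% raised and 0.458% lowered of all genes, and 16 were above 0 and 0 below at an unadjusted p under 0.05, beside 4.03% and 4.31%. DESeq2 called 0 and limma-voom 1, and edgeR gave 1 without T0 replicate 2 or 3. A value below 0 at day 7 with one above 0 at day 14 was found in 33 of 45 members (73.3%) and in 19.6% of all genes. The members share libraries, so their common sign is not 44 separate observations. The median over the members was 0.21 with the length trend removed, and the median over other genes of up to 1000 bases was 0.15.

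At day 7, 8 of 45 members (17.8%) were lower in every T7+RA culture than in every T7-RA culture, beside 12.6% of all genes, and 2 (4.44%) were higher, beside 11.8%. At day 14, 17 (37.8%) were higher in every T14+RA culture than in every T14-RA culture, beside 13.4% of all genes, and 2 (4.44%) were lower, beside 13.9%. The share lower at day 7 was thus near that of all genes. Atp5if1, the inhibitor of the ATP synthase, was lower on both days, with 65.6, 84.7 and 81.3 CPM in T7-RA, 54.2, 45.6 and 42.8 for T7+RA, 79.3, 90.3 and 83.0 for T14-RA and 69.5, 72.3 and 58.0 for T14+RA. Its RA change over both days was -0.49 (SE 0.16, edgeR adjusted p = 0.0279) and did not pass. Cox7a2l2 had an RA change of -0.61 at day 7 (SE 0.22, edgeR adjusted p = 0.0896) and also did not pass.

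**Figure D3:**
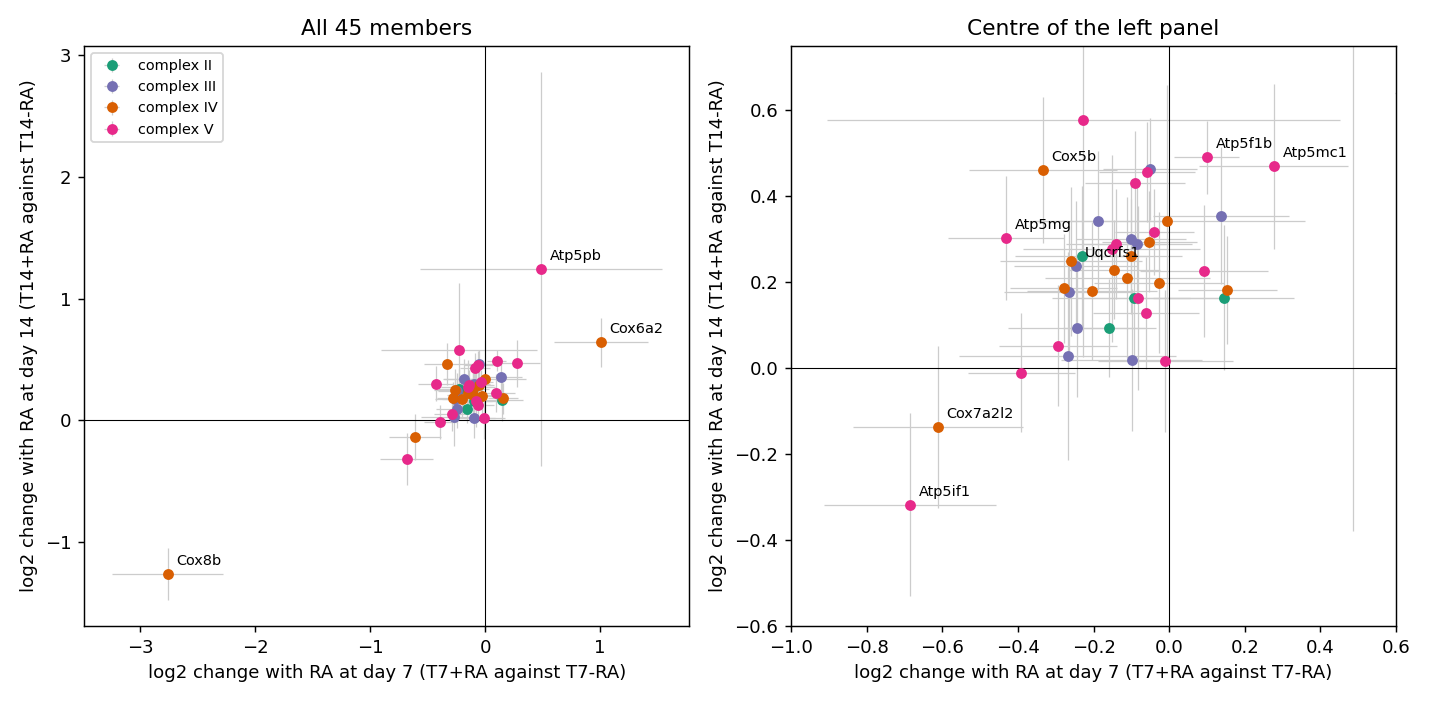
Change with RA at day 7 (horizontal axis) and at day 14 (vertical axis), log2, for the 45 members coloured by complex, with standard errors, on the full range (left) and in its centre (right). Most points lie left of 0 at day 7 (37 of 45) and above 0 at day 14 (41 of 45), and Cox8b lies far below 0 on both axes.

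The muscle forms Cox6a2 and Cox8b had the largest T14 changes of all members, and their values went in opposite directions with RA. Cox6a2 (band 1q37) had 0, 0 and 3 counts at T0, 9, 13 and 3 for T7-RA, 66, 49 and 51 for T14-RA, 11, 15 and 19 for T7+RA and 104, 97 and 82 for T14+RA. Cox8b (band 1q41) had 2, 0 and 0 counts at T0, 20, 15 and 13 for T7-RA, 89, 55 and 60 for T14-RA, 2, 3 and 1 for T7+RA and 39, 32 and 23 for T14+RA. Every culture of day 14 exceeded every T0 culture for both genes. At day 7, the T0 cultures overlapped those of T7-RA for Cox6a2 and those of T7+RA for Cox8b. Summed over the cultures, the level in T14-RA was 48.3 times that of T0 for Cox6a2 (95% counting interval 16.2 to 237) and 89.0 times for Cox8b (24.3 to 740), with 3 and 2 counts behind T0. These intervals cover counting error only.

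With RA, Cox8b was lower in every culture of either day. The level in T7-RA was 7.15 times that in T7+RA (interval 3.06 to 20.4), and the level in T14-RA was 2.43 times that in T14+RA (1.89 to 3.14). The log2 change with RA was -2.76 at day 7 (SE 0.49, edgeR adjusted p = 1.8e-05) and -1.26 at day 14 (SE 0.21, edgeR adjusted p = 5.37e-06). Day 14 minus day 7 gave 1.50 (SE 0.56, edgeR adjusted p = 0.341), which did not pass. For Cox6a2, T14+RA lay above T14-RA in every culture, at 100, 152 and 149 CPM against 79.3, 86.8 and 86.4, while the day 7 groups overlapped. Its change with RA was 0.64 at day 14 (SE 0.20, edgeR adjusted p = 0.0304) and 0.71 over both days (SE 0.18, edgeR adjusted p = 0.00385), neither under 0.001. From day 7 to day 14 it rose by 2.91 without RA (SE 0.31, edgeR adjusted p = 5.5e-10) and by 2.54 with RA (SE 0.26, edgeR adjusted p = 9.54e-11).

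The ubiquitous partners had smaller T14 changes. Cox6a1 had 261, 400 and 214 CPM at T0, 334, 344 and 384 for T14-RA and 370, 490 and 417 for T14+RA, and its T14 change of 0.37 (SE 0.14, edgeR adjusted p = 0.0419) did not pass. Cox8a had 143, 165 and 161 CPM at T0, 305, 365 and 313 for T14-RA and 343, 446 and 422 for T14+RA, with a T14 change of 1.15 (SE 0.14, edgeR adjusted p = 3.92e-10). Per kilobase of gene size, Cox6a2 made up 1.10% ± 1.90 of the Cox6a pair at T0 (SD, n = 3), 3.34% ± 1.82 for T7-RA, 21.6% ± 0.992 for T14-RA, 7.36% ± 2.50 for T7+RA and 26.5% ± 2.67 for T14+RA. Cox8b made up 0.966% ± 1.67 of the Cox8 pair at T0, 11.3% ± 1.36 for T7-RA, 32.7% ± 3.05 for T14-RA, 1.76% ± 0.604 for T7+RA and 14.23% ± 0.840 for T14+RA. By level per kilobase among the 14 complex IV members, Cox8b was number 5 for T14-RA and number 13 for T14+RA, and Cox6a2 was number 13 and number 6.

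**Figure D4:**
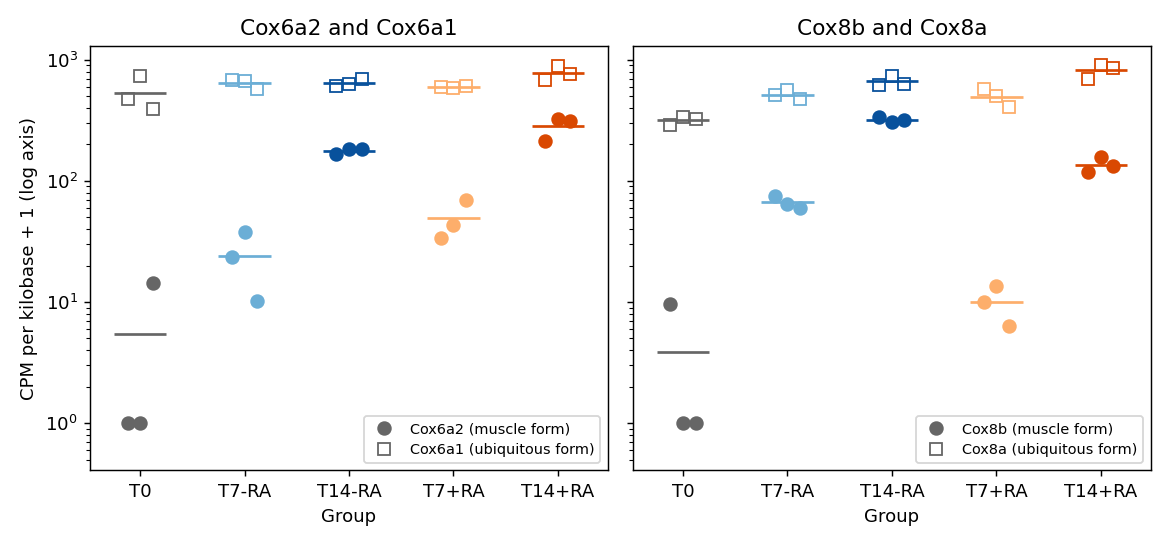
Level per kilobase of gene size, plus 1, on a log axis, for the muscle forms (filled circles) and ubiquitous forms (open squares) of Cox6a (left) and Cox8 (right) in each of the 3 cultures per group, with group means as lines. Both muscle forms climb from T0 to day 14, Cox8b is lower with RA on both days, and in T14+RA Cox6a2 reaches 26.5% of its pair while Cox8b reaches 14.23%.

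The log2 ratio of the restricted to the other isoform was tested within libraries by two-sided exact permutation, for 4 of the 7 pairs planned and 12 tests in all, with Benjamini-Hochberg adjustment over the 12. The smallest p the day and RA tests can give is 0.005, and an adjusted p under 0.05 was called. The ratio of Cox6a2 to Cox6a1 was 2.62 higher at day 14 than at day 7 (exact permutation p = 0.005, adjusted 0.012) and 0.81 higher with RA (p = 0.005, adjusted 0.012). For Cox8b to Cox8a, the ratio was 2.40 higher at day 14 (exact permutation p = 0.005, adjusted 0.012), and it fell by 2.04 with RA (p = 0.005, adjusted 0.012), in every culture at either day. Against T0, the later cultures had ratios higher by 4.21 for Cox6a (exact permutation p = 0.0132, adjusted 0.0225) and by 3.07 for Cox8 (p = 0.0176, adjusted 0.0234), with overlap. The Cox6a value lost its call without T0 replicate 1 (3.63, adjusted p = 0.0879) and without T0 replicate 2 (3.54, adjusted p = 0.0989), and the Cox8 value without T0 replicate 2 (2.69, adjusted p = 0.117) and without T0 replicate 3 (2.79, adjusted p = 0.0959), all by exact permutation. Both values rest on few T0 counts, 0, 0 and 3 for Cox6a2 and 2, 0 and 0 for Cox8b. They also rest on the 0.5 added to each count. With 2 added, the Cox8 value was 1.76 and not called (exact permutation, adjusted p = 0.0844).

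The summed level of myotube markers also rose with time. At day 14 it was lower with RA, while that of the members was higher. The summed level of the 8 markers was 171 to 208 CPM at T0, 2724 to 3300 for T7-RA, 10940.1 to 11479 for T14-RA, 1384 to 1714 for T7+RA and 4744 to 5531 for T14+RA. By the RA term, 5 of the 8 (Acta1, Actn2, Mymk, Myh3 and Tnnt3) were called as lowered and 0 as raised, beside 3.07% and 3.33% of all genes. The RA term was below 0 in 6 of the 8 and above 0 in 2, Ckm and Des, which did not pass. The summed level of 5 markers of proliferating cells was 1390.2 to 1620.35 CPM at T0 and 322 to 563 at day 14. The part of these markers in the members' changes was not tested.

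The c subunit genes of complex V also differed from each other. Atp5mc3 had 127, 159 and 159 CPM at T0, 225, 255 and 288 for T14-RA and 333, 357 and 361 for T14+RA, a T14 change of 0.92 (SE 0.14, edgeR adjusted p = 2.25e-07). Atp5mc1 had 123, 124 and 52.4 CPM at T0 and 62.7 to 124 at day 14, and its T14 change of -0.39 (SE 0.19, edgeR adjusted p = 0.1) did not pass. Per kilobase, Atp5mc1 made up 25.8% ± 6.00 of the 3 genes at T0 (SD, n = 3) and 15.1% ± 2.79 for T14-RA, and Atp5mc3 made up 32.3% ± 10.8 and 39.8% ± 3.76. The log2 ratio of Atp5mc1 to Atp5mc3 fell by 0.46 from day 7 to day 14 (exact permutation p = 0.015, adjusted 0.0225) and by 0.86 from T0 to the later cultures (exact permutation p = 0.0352, adjusted 0.0422), the latter with T0 cultures that overlapped the later ones. Between the days the cultures did not overlap with RA and overlapped without it, for this ratio and for that of Atp5mc2 to Atp5mc3. That call was lost (adjusted p of 0.0528 to 0.211, exact permutation) without each of T0 replicates 1 and 2, T7-RA replicate 3, T14-RA replicates 2 and 3 and T14+RA replicates 1 and 3. The ratio of Atp5mc2 to Atp5mc3 fell by 0.45 from day 7 to day 14 (exact permutation p = 0.01, adjusted 0.02) and by 0.41 with RA (exact permutation p = 0.005, adjusted 0.012), the cultures with and without RA not overlapping at either day.

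Other genes of oxidative phosphorylation were examined by fixed lists, whose counts stand beside 8.47% raised and 8.85% lowered of all genes for T14, 3.33% and 3.07% for RA, and 2.46% and 2.35% in T14+RA against T14-RA. Of 33 assembly factors, 1 was called for T14, Cox20 (1.40, SE 0.29, edgeR adjusted p = 9.23e-05), with a median of 0.60, and of 16 regulators 1 was raised, Mef2a, and 1 lowered, Pprc1, shares at or below those of all genes. For complex I, 44 genes with symbols starting Nduf were taken, assembly factors such as Ndufaf1 among them. Of these, 12 were called as raised for T14 and 0 as lowered, with a median of 0.54, and the RA term was called in 0. Of 14 carriers and exchange proteins, 3 were called as raised for T14, Etfdh, Vdac3 and Ckmt2, the mitochondrial creatine kinase of muscle, whose RA term was -2.28 (SE 0.23, edgeR adjusted p = 1.01e-11). Cycs, the cytochrome c that links complexes III and IV, was raised by RA at day 14 (0.86, SE 0.19, edgeR adjusted p = 0.000602), and so was the ADP/ATP carrier Slc25a4 (0.49, SE 0.10, edgeR adjusted p = 0.000214). The RA term was called as lowered in 2 of the 16 regulators, Mef2a (-0.997, SE 0.13, edgeR adjusted p = 7.7e-09) and Mef2c (-0.69, SE 0.15, edgeR adjusted p = 0.000482).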

How the data were processed

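RNA-seq of 15 H9c2 cultures was analysed, with groups and replicate numbers from the sample labels. The labels number the cell line field upward through the samples, while every title says H9c2, which was used. Per the labels' processing notes, the authors mapped reads to Rnor_6.0 with HISAT2 and counted them with featureCounts, and they deposited raw counts per gene without normalization. The smallest sum of a gene was 21 counts, so a filter had been applied. Which annotation release was used, and whether reads were counted by strand, is not given in the sources used here, so overlapping genes and rows that share a symbol are uncertain. The library kit preserves strand. Promoters come from RefSeq (GRCr8), another build, and were joined by symbol or synonym only. Gene sizes are those deposited with the counts, and their definition is not given in the sources used here. The labels do not say that the replicates were grown on separate occasions, so p-values measure the spread between these cultures.

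The counts were fitted on all 11574 genes in edgeR 4.0.16 (R 4.3.3) with TMM scaling and robust quasi-likelihood tests, with the study's additive formula (T7, T14 and RA) and with 5 group means. P-values were adjusted by the Benjamini-Hochberg method, and an adjusted p under 0.001 was called (0.05 for the difference of the RA changes). Isoform ratios (0.5 added to each count) were tested by exact permutation and called at an adjusted p under 0.05. Depth was 508397 to 1030820 counts per library. Between replicates of a group, chi-square divided by the number of genes was 1.07 to 3.09, so no library was a copy of another. Values near 1 are those of counting error alone, so this does not show that the replicates were separate cultures. The statistics were tested on simulated data. Members and lists were chosen with earlier results of these data known. Named were isoform pairs, the 5 members with the largest T14 change among those called, members called for RA and, chosen after their values were seen, Sdha, Sdhd, Uqcrc1, Uqcrc2, Cyc1, Cox5b, Cox7a2l, Atp5f1b, Atp5if1 and Atp5pb. Alternatives were relative log expression factors, library size only, DESeq2 1.42.0, limma-voom (limma 3.58.1), edgeR's filter by group, another threshold, a replicate block, 2 added to each count, shares in percent, each library left out, and 2 chosen after seeing the data (length trend removed, and T0 replicates 2 and 3 left out together).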

Additional observations from a re-analysis of the deposited data

Results flagged for a closer look

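Of 45 members, 2 (4.44%) were lower with RA in every culture at day 7 and higher in every culture at day 14, beside 0.397% of all genes, and 0 did the reverse, beside 0.363%. For Atp5mg, subunit g of the ATP synthase, every T7+RA culture was below every T7-RA culture (-0.43 on the log2 scale) and every T14+RA culture was above every T14-RA culture (0.30). The difference was 0.73 (SE 0.21, edgeR adjusted p = 0.0964), which did not pass. For Uqcrfs1, the Rieske iron-sulfur protein of complex III, the changes were -0.25 and 0.24. The difference was 0.48 (SE 0.22, edgeR adjusted p = 0.546), which did not pass either. The cultures of Uqcrfs1 had 111, 106 and 116 CPM in T7-RA, 91.2, 96.7 and 92.6 for T7+RA, 115, 129 and 141 for T14-RA and 141, 151 and 163 for T14+RA.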

How the results depend on the processing

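Of 96 values recomputed under alternatives other than leaving out 1 library, 80 kept their direction and their side of the threshold, or stayed within 1.5 times for counts. At an adjusted p under 0.05, the members called were 20 for T7, 4 for RA, 4 in T14-RA against T7-RA, 32 in T14+RA against T7+RA and 7 in T14+RA against T14-RA. For T7, scaling by library size only gave 8, and it moved the median of all genes from 0.02 to 0.13 (T14: 0.05 to 0.15). For RA, DESeq2, limma-voom and the length trend removed each gave 2, and leaving out T0 replicates 2 and 3, which leaves 1 T0 culture, gave 3. Leaving out these 2 libraries gave 4 in T14+RA against T14-RA and 2 for the difference of the RA changes, for which limma-voom gave 1. The ratio of Cox8b to Cox8a after T0 with 2 added to each count was 1.76 (exact permutation, adjusted p = 0.0844). The cause was not tested.

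Same-numbered cultures of different groups deviated together with a mean correlation of 0.032 over 30 pairs (highest 0.186). Over 60 pairs of different number the mean was -0.016 (highest 0.084). Against their group mean, the 296 short genes had medians of 0.36, 0.08, 0.09 and 0.16 in replicate 2 of T0, T7-RA, T14-RA and T14+RA. In replicate 3 of these groups they had -0.24, -0.11, -0.05 and -0.13, while replicates 2 and 3 of T7+RA had -0.02 and 0.003. The mean correlation therefore cannot decide whether the numbers pair the cultures. With the replicate number as a block, 2 members were called for RA and 1 for the difference.

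Leaving out 1 library in turn gave 1 to 9 for T7, 21 to 34 for T14, 1 to 2 for RA, 2 to 2 in T14-RA against T7-RA, 10 (without T7+RA replicate 2) to 24 (without T0 replicate 2) in T14+RA against T7+RA, 1 to 1 at day 7, 2 to 2 at day 14 and 0 to 1 for the difference. The isoform ratios after T0 ran from 3.54 to 5.47 (Cox6a2), 2.69 to 3.73 (Cox8b), -1.32 to -0.55 (Atp5mc1) and -0.59 to 0.039 (Atp5mc2, which changed sign without T0 replicate 1, at 0.039). Of the called members, 15 of 27 for T14, 8 of 16 in T14+RA against T7+RA and 0 of 4 for T7 were called under all 23 alternatives, and 0 changed sign. For Atp5pb and Atp5md, with 60 and 70 counts in all, no comparison was called. Which changes could be detected at such counts was not tested.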

Other observations

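Complex I, the entry point for NADH, was examined beside the other complexes. The 44 genes with symbols starting Nduf include assembly factors. Among them, 33 had a change with RA below 0 at day 7 (median -0.13) and 31 one above 0 at day 14 (median 0.16). In edgeR 0 passed on either day. Cycs, somatic cytochrome c, had 63.7, 47.8 and 49.1 CPM for T14-RA and 112, 84.9 and 96.1 for T14+RA, without overlap, while its day 7 groups overlapped. Ucp2, a mitochondrial inner membrane carrier, was called as lowered for T7 (-0.80, SE 0.17, edgeR adjusted p = 0.000228) and as raised by the RA term (0.63, SE 0.12, edgeR adjusted p = 7.5e-05). Of 5 fibroblast markers, the RA term was called as raised in 1 (Dcn, 1.08) and as lowered in 3 (Lum, Thy1 and Postn, the last at -5.46). This stands beside 3.33% raised and 3.07% lowered of all genes.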
